A study of Mus musculus with 6 samples.

Results

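The 40 genes described here code for the digestive enzymes, membrane proteins, regulators and proton pump of the lysosome in mouse peritoneal macrophages. They were chosen by symbol and known function, with no measured value in the rule but with earlier results of these data known. All 40 were listed at 1 locus and marked OK in each of 6 gene tables, among 22167 genes that passed the same row filters, and all 40 passed the filter on low values. They comprise 10 cathepsins and other proteases (Ctsa, Ctsb, Ctsc, Ctsd, Ctsh, Ctsk, Ctsl, Ctss, Ctsz and Tpp1), 6 glycosidases (Hexa, Gusb, Glb1, Gaa, Man2b1 and Neu1), 7 lipid enzymes, activators and cholesterol carriers (Npc1, Npc2, Lipa, Psap, Ppt1, Asah1 and Smpd1), and 5 membrane proteins and regulators (Lamp1, Lamp2, Mcoln1, Tfeb and Grn). The vacuolar ATPase is represented by 5 genes of its membrane sector V0 (Atp6v0a1, Atp6v0b, Atp6v0c, Atp6v0d1 and Atp6v0d2), and by 6 genes of its cytosolic sector V1 and the accessory subunit Atp6ap1, together 7 (Atp6v1a, Atp6v1b2, Atp6v1c1, Atp6v1d, Atp6v1e1, Atp6v1h and Atp6ap1).

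Poly-A mRNA was sequenced from C57Bl/6 peritoneal macrophages that were wildtype (WT) or carried the genotype miR-221/222 -/Y (KO), the loss of an X-linked pair of microRNAs. Both genotypes were cultured untreated (naive), given 1000 ng/ml of the bacterial endotoxin lipopolysaccharide for 4 h (LPS), or tolerized, that is held with 10 ng/ml LPS for 15 h, washed, rested 2 h and then challenged with 1000 ng/ml for 4 h. The labels do not say in which cells the microRNAs were deleted. There was 1 library per group, 6 in all; the design text speaks of triplicates, and whether these were pooled is not stated. Endotoxin tolerance is the state in which a macrophage that has met endotoxin responds differently to a new dose, and the groups set that state beside a first response and beside untreated cells, in each genotype.

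The lysosome is the acidic compartment in which macrophages break down what they engulf and what autophagy delivers. The vacuolar ATPase pumps protons into it, hydrolases such as the cathepsins work at the resulting low pH, and LAMP proteins line its membrane. The transcription factor TFEB and its relatives bind short motifs in the promoters of many lysosomal genes and switch them on together.

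RefSeq promoters (250 bases before to 50 after a gene's start, build GRCm38.p6) were matched by symbol for 32 of the 40 genes, and these windows were searched on both strands for letters that the TFEB family is known to bind. The core E-box CACGTG was found in 10 of 32 promoters (31.2%), in 12.5% of 7387 promoters of genes tested here and in 8.09% of all 27025 promoters. Its extended form TCACGTGA, which contains the core, was found in 5 of 32 (15.6%), in 2.45% of those of tested genes and in 1.12% of all. These 5 were the promoters of Ctsd, Ctsa, Mcoln1, Atp6v0d1 and Atp6v1a. The related motif TCATGTGA was found in 5 others (15.6%), those of Ctss, Tpp1, Ppt1, Grn and Atp6v0c, in 0.934% of those of tested genes and in 1.15% of all. All 5 windows with the extended E-box and that of Tpp1, which holds the related motif once on each strand, are shown 5′ to 3′ along the gene, with the motif in capitals.
Ctsd promoter, GRCm38.p6 chr7:142387867-142387986, minus strand: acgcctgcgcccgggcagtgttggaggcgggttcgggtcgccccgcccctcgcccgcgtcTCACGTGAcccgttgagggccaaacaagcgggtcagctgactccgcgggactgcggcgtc
Ctsa promoter, GRCm38.p6 chr2:164833700-164833784, plus strand: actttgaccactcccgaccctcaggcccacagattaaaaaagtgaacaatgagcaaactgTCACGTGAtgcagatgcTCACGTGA
Mcoln1 promoter, GRCm38.p6 chr8:3500413-3500518, plus strand: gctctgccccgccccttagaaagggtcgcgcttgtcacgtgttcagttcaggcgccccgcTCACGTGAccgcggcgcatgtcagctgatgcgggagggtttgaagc
Atp6v0d1 promoter, GRCm38.p6 chr8:105566061-105566128, minus strand: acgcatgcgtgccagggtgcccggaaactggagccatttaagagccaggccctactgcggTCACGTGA
Atp6v1a promoter, GRCm38.p6 chr16:44139332-44139451, minus strand: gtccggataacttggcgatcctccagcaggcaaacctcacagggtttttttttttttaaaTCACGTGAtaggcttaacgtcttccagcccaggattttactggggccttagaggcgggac
Tpp1 promoter, GRCm38.p6 chr7:105752212-105752291, minus strand: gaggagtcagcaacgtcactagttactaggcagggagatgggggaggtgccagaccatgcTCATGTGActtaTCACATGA
The motif began 99 bases before the annotated start in Ctsd, 46 in Mcoln1, 132 in Atp6v1a and 4 in Atp6v0d1, and Ctsa held it on both sides of its start. Lamp1 held the core E-box 4 times between 61 and 15 bases before its start, without the extended form. A match in a window is a description of the letters and not of binding, which these data do not measure.

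Values are FPKM, fragments scaled by transcript length and by the fragments mapped in the library, which allow levels to be compared between genes. The summed FPKM of a table ranged from 573914 to 681618, and the deposited intervals implied about 17700000 to 25200000 fragments per library. The median half-width of the interval was 2.10% to 3.26% of a member's value, and the largest was 26.5%. These intervals cover counting error only. The rows of the deleted microRNAs, Mir221 and Mir222, were listed at 0 in all 6 tables, WT included, so poly-A libraries do not check the deletion. Summed markers of macrophages, 8 genes, stood at 11050 to 47274 FPKM, with none of them under 1 FPKM in all 6 libraries. Most of that sum was Lyz2, a lysozyme that is also on the list of other hydrolases below, at 45134 FPKM in WT naive and 8538 in KO tolerized cells. Of the others, Emr1 stood at 431 FPKM in WT naive and 922 in WT tolerized cells, and Itgam at 309.6 and 545. Markers of other peritoneal cells were present at lower levels: 271 to 729 FPKM over 7 B cell genes, 105.1 to 198 over 6 mast cell genes, 66.2 to 348 over 7 neutrophil genes (5 of them under 1 FPKM in all 6), 2.03 to 10.2 over 6 T and NK cell genes, 2.99 to 4.97 over 5 dendritic cell genes and at most 2.13 over 5 mesothelial genes. Summed markers of large peritoneal macrophages, 8 genes, were 464 FPKM in WT naive, 223 in WT LPS and 77.3 in WT tolerized cells, against 229, 218 and 104 in KO cells. The genes in this sum differed in direction. In the same order, Timd4 stood at 35.6, 62.1 and 14.7 FPKM in WT and 108, 140 and 29.1 in KO cells. Vsig4 stood at 158, 45.2 and 0.998 FPKM in WT and 1.87, 0.337 and 0.131 in KO cells. Alox15 stood at 147, 62.4 and 9.49 FPKM in WT and 48.9, 25.9 and 7.82 in KO cells. The summed markers of these cell types moved between the groups, and their part in the results below was not tested.

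Lysosomal transcripts took a smaller share of the summed FPKM after LPS. The 40 genes summed to 5.59% of all FPKM in WT naive cells, 1.72% with LPS and 1.62% when tolerized, and to 3.68%, 2.01% and 2.03% in KO cells. Both naive libraries lay above all 4 exposed libraries, and the WT naive library lay furthest out. Ctsd alone made up 32.6% of the members' FPKM in WT naive cells, 19.1% in KO naive cells and 13.2% to 15.8% in the other 4. In bulk RNA, fewer cells of a type and less RNA per cell cannot be told apart.

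**Figure D1:**
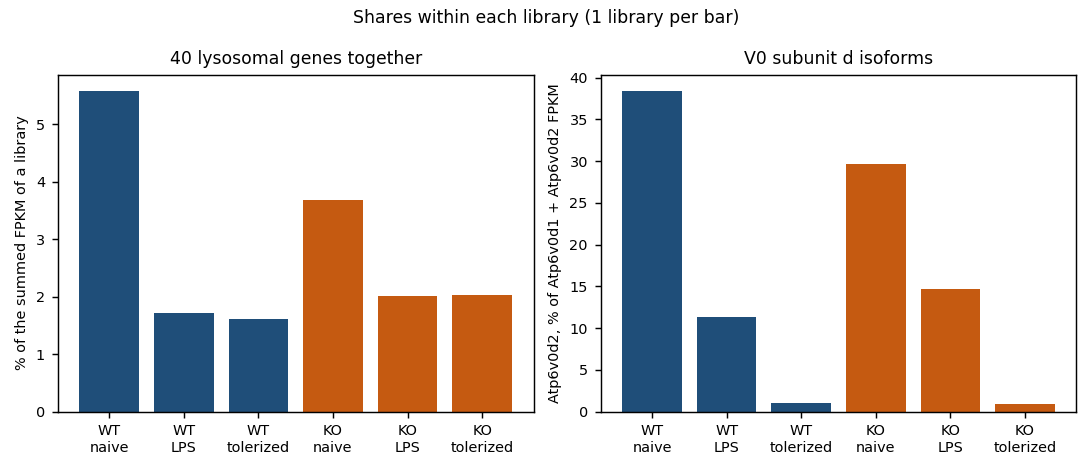
Bars show 1 library each, WT in blue and KO in orange: left, the summed FPKM of the 40 lysosomal genes as a percentage of all FPKM; right, Atp6v0d2 as a percentage of the FPKM of Atp6v0d1 and Atp6v0d2 together. The left bars fall from 5.59% to 1.72% and 1.62% in WT, and the right bars from 38.5% to 11.4% and 1.02%.

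Conditions were tested with limma on log2(FPKM + 1) over 10139 genes, with genotype and condition as terms, so the WT and KO libraries stood in for replicates of a condition. A call required a two-sided p under 0.05 after Benjamini-Hochberg adjustment over all genes tested. Such p-values reflect only how far these libraries lie apart, which may be technical. The median gene differed by -0.76 between LPS and naive cells on this scale, by 0.51 between tolerized and LPS cells and by -0.22 between tolerized and naive cells. Each comparison is therefore given also after rescaling, that is with libraries brought to a shared median of ratios, over 9960 genes, where these medians were 0.02, -0.02 and 0.02. The source of the shifts was not tested. Among all genes the 50 most abundant took 35.2% of FPKM in WT naive, 46.7% in WT LPS and 47.0% in WT tolerized cells, and 38.8%, 44.4% and 43.3% in KO cells.

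With LPS, 29 of the 40 genes fell as deposited (72.5%), against 54.4% of all genes tested, and none rose, against 8.74%. By an unadjusted p under 0.05 only Ctsc lay higher, against 9.60% of all genes. The 40 genes' median difference was -1.27, against -0.76 for all genes. After rescaling, 9 fell on both scales (22.5%, against 23.1% of all genes), so the share of lysosomal genes called lower was then close to the background, while the members' median was -0.44, against 0.02. The 9 were Gusb, Npc1, Asah1, Smpd1, Mcoln1, Tfeb, Atp6v0a1, Atp6v0d2 and Atp6v1b2. Rescaling also made 3 higher (7.5%, against 23.1%): Ctsc, Atp6v1e1 and Atp6v1h. The sign differed between scales for Ctsl, Ctss, Ctsz, Npc2, Lamp2, Atp6v0b and Atp6v0c, none of them called on either. By role, the genes that fell as deposited were 5 of 10 proteases, 6 of 6 glycosidases, 6 of 7 lipid genes, 4 of 5 membrane proteins and regulators, 3 of 5 V0 genes and 5 of 7 V1 and accessory genes. Rescaled, the counts were 0, 1, 3, 2, 2 and 1. Without the WT LPS library 19 of 40 fell as deposited.

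In tolerized against naive cells, which share the naive libraries with the comparison above, 19 of the 40 fell as deposited (47.5%), against 19.7% of all genes, and none rose, against 7.41%. After rescaling 12 fell (30%), against 10.9%, and none rose, against 9.58%. The 12 were Ctsa, Ctsk, Hexa, Man2b1, Npc1, Lipa, Psap, Asah1, Mcoln1, Tfeb, Atp6v0a1 and Atp6v0d2. The members' median was -0.95 as deposited and -0.70 rescaled. By role, 4 proteases, 4 glycosidases, 4 lipid genes, 2 membrane proteins and regulators, 3 V0 genes and 2 V1 genes fell as deposited, and rescaled 2, 2, 4, 2, 2 and 0. No member passed the threshold upwards, and by an unadjusted p under 0.05 only Ctsc lay higher as deposited, against 10.9% of all genes. Leaving out 1 library moved the count of 19 to 7 without WT tolerized, 10 without WT naive and 12 without KO tolerized.

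Between tolerized and LPS cells, both of which ended with 1000 ng/ml for 4 h, 5 of the 40 rose as deposited (12.5%), against 36.8% of all genes, and 1 fell, against 4.32%. The 5 were Ctsh, Npc1, Ppt1, Smpd1 and Tfeb, and the gene that fell was Atp6v0d2. After rescaling 1 rose (Smpd1), against 8.38% of all genes, and 3 fell (Ctsk, Lipa and Atp6v0d2), against 9.46%. Smpd1 and Atp6v0d2 were thus called on both scales, while 17 of 40 genes changed sign between them. The count of 5 was 1 without WT LPS, without KO LPS or without KO tolerized, and 2 without WT tolerized.

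**Figure D2:**
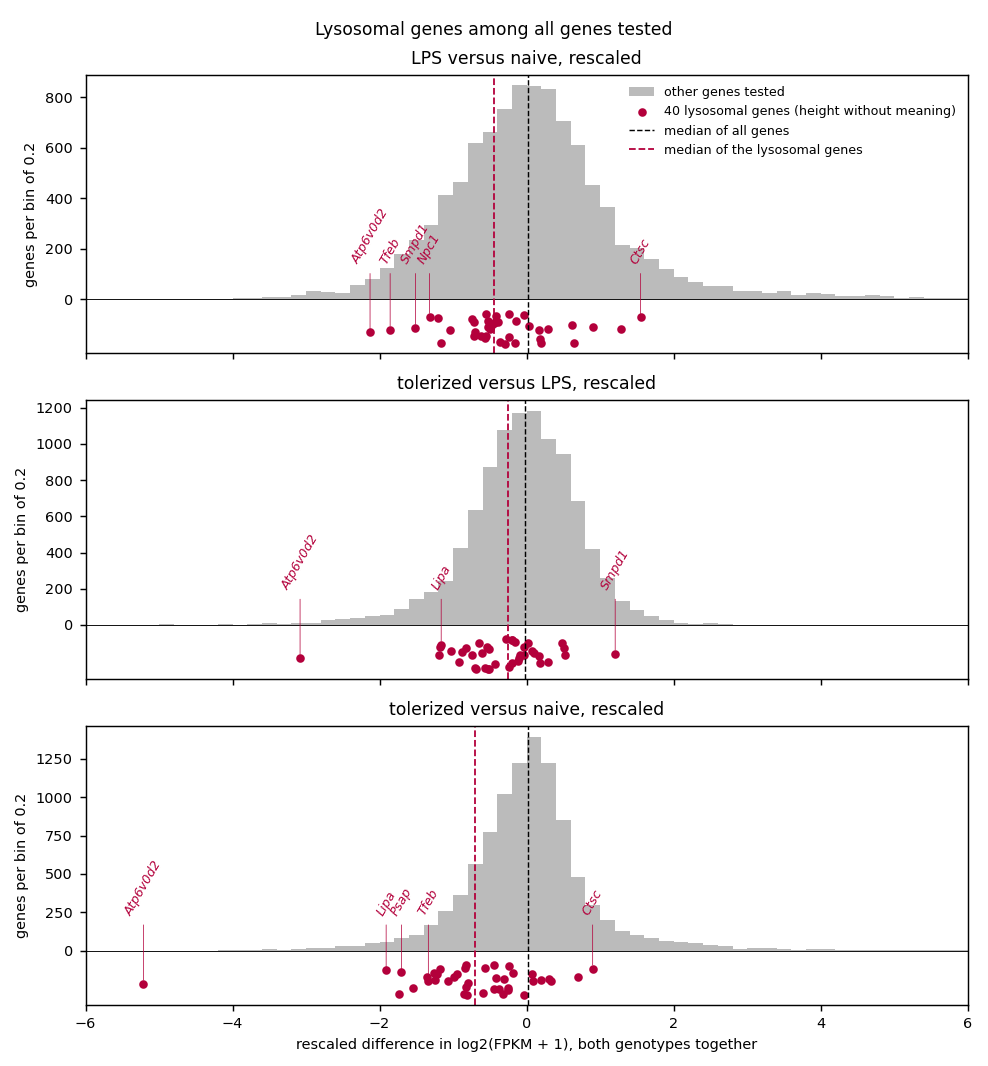
Histograms show the rescaled difference in log2(FPKM + 1) of the genes tested, in bins of 0.2, for 3 comparisons, with the 40 lysosomal genes as red points under the axis (their height has no meaning) and dashed lines at the medians. The members' medians lie at -0.44, -0.26 and -0.70, left of those of all genes, and Atp6v0d2 is the lowest member in each. The axis leaves out 41, 0 and 13 genes, none of them a member.

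Ctsd, the aspartic protease cathepsin D, was the most abundant member in the naive libraries. Its row (mm9 chr7:149561820-149573775) stood at 10448, 1729.7 and 1717 FPKM in naive, LPS and tolerized WT cells and at 4460.2, 1629 and 1715 in KO cells; values of other genes follow in the same order. The WT naive library stood far above the others, and the 4 exposed libraries lay between 1629 and 1729.7 FPKM. Ctsd fell by 2.02 (SE 0.51, adjusted p = 0.014) with LPS and by 1.99 (SE 0.51, adjusted p = 0.034) in tolerized against naive cells as deposited. Rescaled, the differences were -1.17 (SE 0.48, adjusted p = 0.094) and -1.74 (SE 0.48, adjusted p = 0.053), neither past the threshold. As deposited, Ctsd lost its LPS call without WT LPS (-1.76) or KO LPS (-2.29), and its tolerized-against-naive call without WT LPS (-1.99), WT tolerized (-1.66) or KO LPS (-1.99).

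The cysteine cathepsins differed in their calls. Ctsb, an abundant endopeptidase, measured 2388, 1065 and 804 FPKM in WT and 1728, 955 and 1112 FPKM in KO cells, with both naive libraries highest. Its differences of -1.01 (SE 0.40, adjusted p = 0.067) with LPS and -1.10 (SE 0.40, adjusted p = 0.091) in tolerized cells missed the threshold. Ctsl, which helps process antigen and other proteases, measured 323, 165 and 188 FPKM in WT and 254, 195 and 216 in KO cells, and its LPS difference was -0.67 as deposited and 0.18 rescaled. Ctss, the cathepsin that trims the class II invariant chain in antigen-presenting cells, measured 3966, 2090.1 and 1166 FPKM in WT and 3146, 1926 and 1908 in KO cells. The ratio of Ctss to Ctsd within a library, which no scaling changes, was 0.38 in WT naive cells, 1.21 with LPS and 0.68 when tolerized, and 0.71, 1.18 and 1.11 in KO cells. Ctss was thus above Ctsd in both LPS libraries and below it in both naive ones.

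Ctsc, the dipeptidyl peptidase that activates granule serine proteases, was lowest in the naive library of each genotype. It measured 184, 298 and 308 FPKM in WT and 235, 383 and 346 FPKM in KO cells, and the naive and exposed libraries did not overlap. Its difference with LPS was 0.70 (SE 0.26, adjusted p = 0.056) as deposited, just outside the threshold, and 1.55 (SE 0.25, adjusted p = 0.0048) rescaled, where it rose. In tolerized cells it lay 0.65 above naive cells (adjusted p = 0.12). Ctsz, a carboxypeptidase, measured 809, 536 and 1077 FPKM in WT and 1411, 823 and 1189.6 in KO cells, with no difference past the threshold. It stood at 0.34, 0.50 and 1.34 times Ctsb in WT cells, against 0.82, 0.86 and 1.07 times in KO cells.

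Of the other proteases, Ctsa (the protective protein of lysosomal galactosidase and neuraminidase), Ctsk (a collagen-degrading cathepsin) and Tpp1 (a tripeptidyl peptidase) fell in both comparisons with naive cells as deposited. Ctsk was the least abundant protease, with 16.1, 6.34 and 5.43 FPKM in WT and 23.0, 8.67 and 5.85 in KO cells, and fell by 1.36 in tolerized against naive cells after rescaling (adjusted p = 0.01). Ctsa fell by 1.24 in the same comparison (adjusted p = 0.019), and its locus shares 18.6% of its length with the row of Pltp, itself at 484 FPKM in the WT naive library and 65.0 in the KO one. Whether reads of the overlap were split between the rows is not stated. Ctsh, an aminopeptidase, was low with LPS and higher again in tolerized cells, with 374, 118 and 256 FPKM in WT and 241, 127 and 276 in KO cells. It fell by 1.29 (SE 0.30, adjusted p = 0.01) with LPS and rose by 1.11 (SE 0.30, adjusted p = 0.029) from LPS to tolerized cells as deposited, but not rescaled. With 1 library left out, the LPS call of Ctsh was lost without WT LPS (-1.10), and its rise from LPS to tolerized cells without WT LPS (0.93), WT tolerized (1.29), KO LPS (1.30) or KO tolerized (0.93). The tolerized-against-naive calls as deposited were lost for Ctsa without WT tolerized (-1.43) and for Tpp1 without WT naive (-0.93), WT tolerized (-1.11) or KO tolerized (-1.04).

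**Figure D3:**
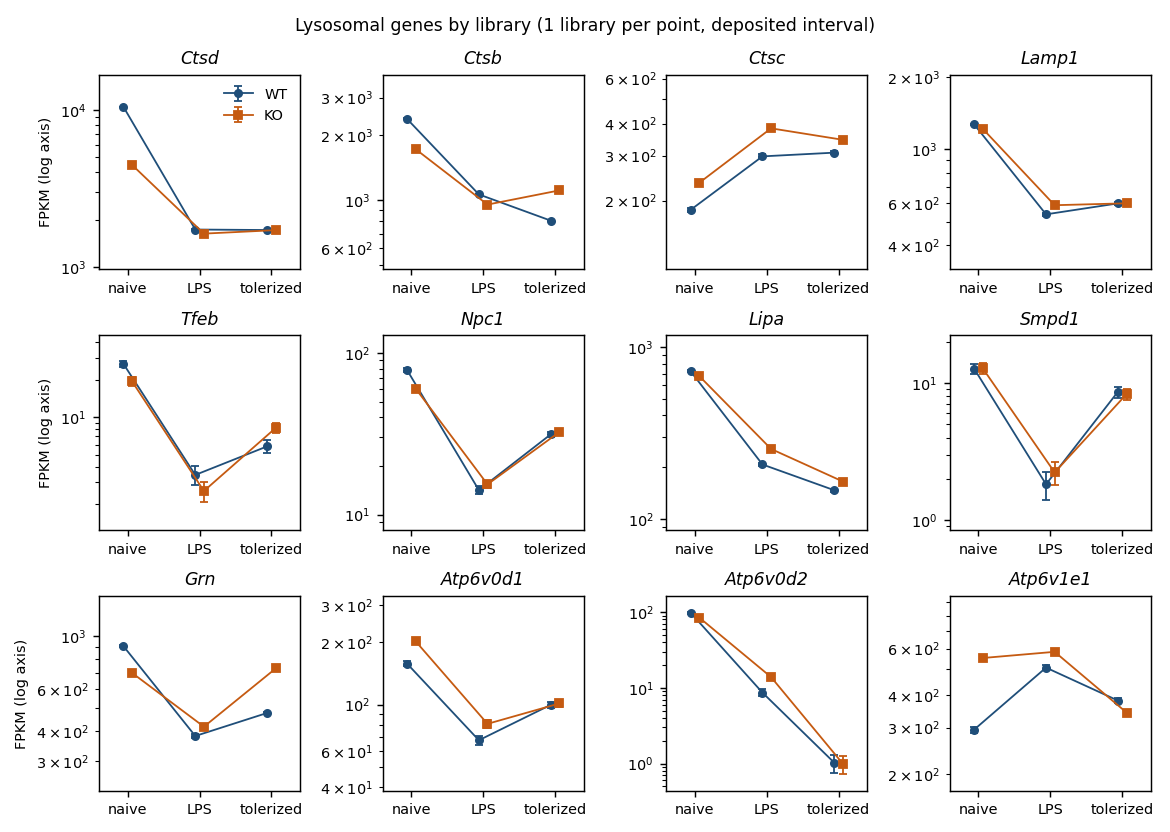
FPKM of 12 lysosomal genes on log axes in naive, LPS and tolerized cells, WT as blue circles and KO as orange squares, 1 library per point, with bars for the deposited interval and lines joining the libraries of a genotype. Ctsc is lowest in the naive libraries, Smpd1 and Npc1 dip with LPS and are higher again in tolerized cells, and Atp6v0d2 falls at each step to 1.03 and 0.99 FPKM.

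All 6 glycosidases, which remove sugars from glycolipids, glycoproteins and glycogen, fell with LPS as deposited. Gusb, the glucuronidase, fell on both scales, by 1.89 (SE 0.31, adjusted p = 0.0028) as deposited and by 1.04 (SE 0.32, adjusted p = 0.039) rescaled. Its levels were 200.4, 42.9 and 93.8 FPKM in WT and 192, 63.8 and 64.6 in KO cells, with both naive libraries above the other 4. Hexa, the alpha subunit of hexosaminidase, measured 617, 182 and 164 FPKM in WT and 370.3, 162 and 115 FPKM in KO cells, and fell by 1.79 (SE 0.27, adjusted p = 0.0075) in tolerized against naive cells as deposited and by 1.54 (SE 0.27, adjusted p = 0.015) rescaled. Man2b1, the acid mannosidase, fell in that comparison too, by 1.21 rescaled (adjusted p = 0.036). Man2b1 measured 312, 108 and 78.9 FPKM in WT and 124, 63.4 and 63.3 FPKM in KO cells, with WT naive the highest and the WT library the higher in each condition. Its LPS call as deposited was lost without WT naive (-0.85), WT LPS (-1.21) or KO LPS (-1.26), and its tolerized-against-naive call without WT naive (-1.07) or WT tolerized (-1.10).

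Glb1, the acid galactosidase, measured 116, 37.3 and 38.1 FPKM in WT and 59.7, 30.5 and 33.3 in KO cells and fell by 1.28 (SE 0.26, adjusted p = 0.0063) with LPS and by 1.20 (SE 0.26, adjusted p = 0.02) in tolerized against naive cells as deposited, but not rescaled. A row of another gene, Tmppe, covers 13.8% of the Glb1 locus. Gaa, which degrades lysosomal glycogen, was lowest with LPS in each genotype, at 63.7, 17.7 and 49.4 FPKM in WT and 77.7, 38.4 and 41.7 in KO cells. It fell with LPS by 1.39 (SE 0.33, adjusted p = 0.011) and differed by -0.62 between tolerized and naive cells (adjusted p = 0.21). Neu1, a sialidase, measured 29.4, 11.2 and 23.1 FPKM in WT and 48.0, 18.2 and 23.7 in KO cells and fell by 1.34 with LPS (adjusted p = 0.0039). The LPS call of Gaa was lost without WT LPS (-0.87), and its difference was -1.92 without KO LPS. Glb1 lost its tolerized-against-naive call without WT naive (-0.85) or WT tolerized (-0.99).

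Npc1 and Npc2 hand cholesterol out of the lysosome in turn, and only Npc1 was called. Npc1, the membrane transporter, fell with LPS by 2.14 (SE 0.22, adjusted p = 0.0007) as deposited and 1.32 (SE 0.22, adjusted p = 0.0056) rescaled. It measured 78.4, 14.2 and 31.3 FPKM in WT and 60.2, 15.4 and 32.4 FPKM in KO cells, with LPS libraries lowest and tolerized libraries between. In tolerized against naive cells it fell, by 1.08 as deposited and 0.84 rescaled (adjusted p = 0.017 and 0.047). As deposited, that call was lost without WT naive (-0.86), WT tolerized (-0.99) or KO tolerized (-1.17). Npc2, the soluble carrier, measured 358, 329 and 431 FPKM in WT and 422, 333 and 651 FPKM in KO cells, with no difference past the threshold on either scale. Npc1 therefore stood at 0.22 of Npc2 in WT naive, 0.043 in WT LPS and 0.073 in WT tolerized cells, and at 0.14, 0.046 and 0.050 in KO cells.

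Lipa, the acid lipase that frees cholesterol and fatty acids from engulfed lipoprotein, was lowest in tolerized cells. It measured 722, 207 and 147 FPKM in WT and 677, 255 and 165 FPKM in KO cells, and the 3 conditions did not overlap. Lipa fell by 2.16 (SE 0.27, adjusted p = 0.0046) in tolerized against naive cells as deposited and by 1.91 (SE 0.26, adjusted p = 0.0077) rescaled, and after rescaling also from LPS to tolerized cells, by 1.16 (SE 0.26, adjusted p = 0.035). Psap, the precursor of the saposins that present sphingolipids to their hydrolases, measured 5453, 1818 and 1028 FPKM in WT and 4126, 1812 and 1453 in KO cells. It fell by 1.96 (SE 0.44, adjusted p = 0.023) in tolerized against naive cells as deposited and by 1.70 (SE 0.41, adjusted p = 0.036) rescaled. As deposited, the call of Psap was lost without WT LPS (-1.96), WT tolerized (-1.60) or KO LPS (-1.96).

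Smpd1, the acid sphingomyelinase, was low after a first exposure and higher after a repeated one. Its row (mm9 chr7:112702873-112706903) measured 12.8, 1.82 and 8.65 FPKM in WT and 12.8, 2.22 and 8.31 FPKM in KO cells, low with LPS in both genotypes and between LPS and naive in tolerized cells. It fell with LPS by 2.20 (SE 0.19, adjusted p = 0.0005) as deposited and 1.51 (SE 0.20, adjusted p = 0.0026) rescaled. It rose from LPS to tolerized cells by 1.65 (SE 0.19, adjusted p = 0.0069) as deposited and 1.20 (SE 0.20, adjusted p = 0.017) rescaled, the only member called higher on both scales. Tolerized against naive, the difference was -0.54 (adjusted p = 0.081). Asah1, the acid ceramidase that acts on the product of Smpd1, fell with LPS by 1.57 and in tolerized against naive cells by 1.51 as deposited, from 299 and 259 FPKM in the WT and KO naive libraries. Its tolerized-to-LPS difference was 0.06. Ppt1, a thioesterase that removes palmitate from proteins, measured 87.5, 27.5 and 53.5 FPKM in WT and 64.0, 28.6 and 51.5 in KO cells. It fell by 1.39 with LPS and rose by 0.88 from LPS to tolerized cells, as deposited only, a rise that was not called without WT LPS (0.73), WT tolerized (0.95), KO LPS (1.04) or KO tolerized (0.81).

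Tfeb, the transcription factor named above, fell with LPS more than any member but Atp6v0d2. Its row (mm9 chr17:47873985-47929365) measured 26.8, 3.43 and 5.82 FPKM in WT and 19.4, 2.55 and 8.19 FPKM in KO cells, with naive libraries highest, LPS libraries lowest and tolerized libraries between. The fall was 2.59 (SE 0.26, adjusted p = 0.00069) as deposited and 1.86 (SE 0.26, adjusted p = 0.0032) rescaled. Tolerized against naive it fell by 1.59 (SE 0.26, adjusted p = 0.0094) as deposited and 1.34 (SE 0.26, adjusted p = 0.02) rescaled, and it rose by 1.00 (SE 0.26, adjusted p = 0.028) from LPS to tolerized cells as deposited but not rescaled. That rise was not called without WT LPS (1.15), KO LPS (0.84) or KO tolerized (0.59). Mcoln1, the lysosomal calcium channel mucolipin, measured 41.5, 11.9 and 18.6 FPKM in WT and 41.7, 15.7 and 19.8 in KO cells and fell by 0.72 (SE 0.21, adjusted p = 0.034) with LPS and by 0.83 (SE 0.21, adjusted p = 0.041) in tolerized against naive cells after rescaling. As deposited, the latter call of Mcoln1 was lost without WT naive (-0.96), WT tolerized (-1.13) or KO tolerized (-1.02).

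The 2 LAMP proteins, which make up much of the lysosomal membrane's glycoprotein, differed in their calls. Lamp1 measured 1272, 537 and 596 FPKM in WT and 1219, 586 and 597 FPKM in KO cells, fell by 1.15 (SE 0.32, adjusted p = 0.02) with LPS as deposited, and differed by -1.06 between tolerized and naive cells (adjusted p = 0.053). Lamp2 measured 399, 199 and 199.5 FPKM in WT and 294, 237 and 263 FPKM in KO cells, and its LPS difference of -0.66 (SE 0.31, adjusted p = 0.11) was 0.19 rescaled. Neither was called after rescaling, and the difference between them was not tested. Grn, the precursor of the lysosomal granulins, measured 907, 382 and 477 FPKM in WT and 701, 418 and 732 in KO cells, and fell with LPS by 1.00 (SE 0.36, adjusted p = 0.049) as deposited. The LPS call of Grn was lost without WT naive (-0.62), and without WT LPS, WT tolerized or KO LPS, where its value hardly moved, and that of Lamp1 without WT LPS (-1.07) or KO LPS (-1.23).

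**Figure D4:**
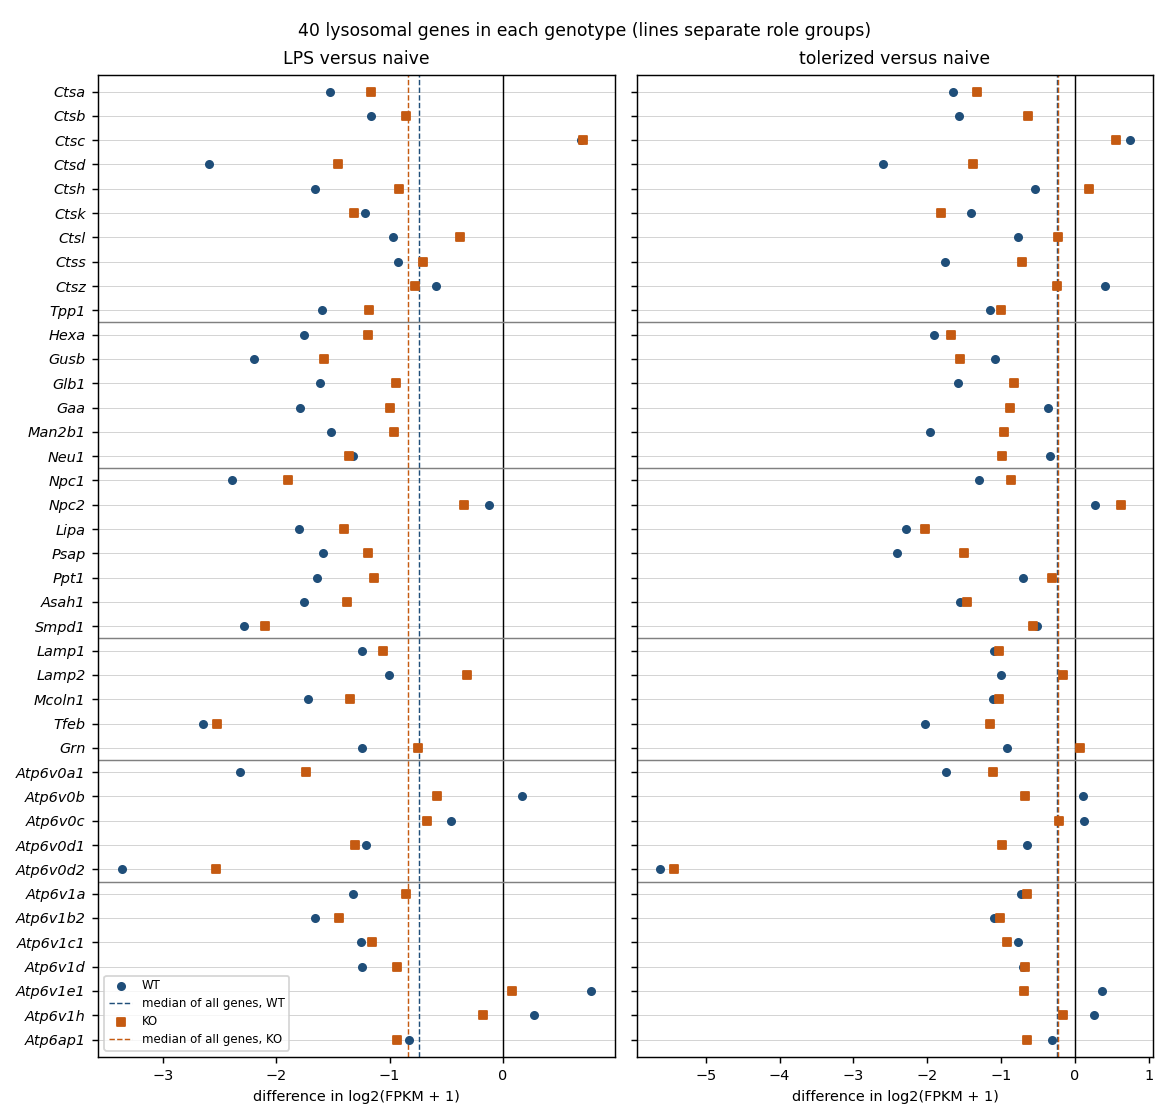
Differences in log2(FPKM + 1) of the 40 genes, ordered by role, for LPS against naive (left) and tolerized against naive (right), WT as blue circles and KO as orange squares, 1 pair of libraries per point, as deposited. Dashed lines mark the median of all genes in that pair. With LPS 36 points of WT and 38 of KO lie below 0, and Ctsc lies above 0 in all 4 pairs.

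Within the proton pump, the d subunit of V0 has 2 isoforms whose shares differed between conditions. Atp6v0d2, the isoform known from osteoclasts and from fusing macrophages (mm9 chr4:19803984-19849713), measured 98.4, 8.66 and 1.03 FPKM in WT and 84.9, 13.9 and 0.99 FPKM in KO cells. It fell by 2.95 (SE 0.26, adjusted p = 0.00051) with LPS and fell by 2.58 (SE 0.26, adjusted p = 0.0069) from LPS to tolerized cells. Between naive and tolerized cells it fell by 5.52 (SE 0.26, adjusted p = 0.0016). Rescaled, it fell by 2.13, 3.08 and 5.21 (adjusted p = 0.0025, 0.0056 and 0.0018). The difference of -5.52 corresponds to a 46.0-fold lower FPKM + 1. Atp6v0d1, the widely expressed isoform, measured 158, 67.4 and 99.8 FPKM in WT and 202, 80.9 and 101 FPKM in KO cells and fell by 1.26 (SE 0.23, adjusted p = 0.0043) with LPS as deposited, but not rescaled. Atp6v0d2 made up 38.5% of the 2 isoforms' FPKM in WT naive, 11.4% in WT LPS and 1.02% in WT tolerized cells, and 29.6%, 14.7% and 0.97% in KO cells. The 3 conditions did not overlap in this share, which no scaling of a library changes. Summed markers of osteoclasts and fused macrophages, 7 genes, were 100.3, 162 and 434 FPKM in WT and 278, 211 and 231 in KO cells. Acp5, also among the other hydrolases below, stood at 44.7, 125 and 272 FPKM in WT and 161, 122 and 129 in KO cells. In WT cells Mmp9 stood at 6.03, 4.99 and 116 FPKM and Nfatc1 at 35.8, 21.6 and 20.3. The markers thus did not move together, and their part was not tested.

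Among the other V0 genes, Atp6v0a1, the large subunit that forms the proton path, measured 85.9, 16.4 and 24.9 FPKM in WT and 51.8, 14.9 and 23.4 in KO cells. It fell on both scales with LPS, by 2.03 and 1.20 (adjusted p = 0.00098 and 0.0099), and in tolerized against naive cells by 1.43 and 1.18 (adjusted p = 0.0095 and 0.022). The latter call as deposited was lost without WT tolerized (-1.26). Atp6v0b, a proteolipid of the rotor ring, measured 335, 377 and 359.9 FPKM in WT and 574, 384 and 360.0 in KO cells. Only the KO naive library stood out, and no difference passed the threshold. Atp6v0c, the main proteolipid of that ring, measured 138, 100.2 and 149.8 FPKM in WT and 149, 93.6 and 128 FPKM in KO cells, but this row is uncertain. A second row, Atp6v0c-ps2 (mm9 chr17:24300831-24306340), covers 99.4% of the Atp6v0c locus with higher values, 824, 427 and 414 FPKM in WT and 1277, 458 and 377 in KO cells. The 2 rows sum to 962, 527 and 564 FPKM in WT and to 1426, 552 and 505 in KO cells, highest in the naive library of each genotype, whereas the Atp6v0c row alone was not highest in the naive library of WT.

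In the V1 sector, which splits ATP, the catalytic subunit Atp6v1a and the stalk subunits Atp6v1c1 and Atp6v1d fell with LPS as deposited, by 1.09, 1.20 and 1.09 (adjusted p = 0.01, 0.0041 and 0.0065), and none of the 3 was called after rescaling. Atp6v1b2, the nucleotide-binding B subunit, fell on both scales. It measured 281, 88.3 and 131 FPKM in WT and 277, 101 and 137 FPKM in KO cells, and fell by 1.55 (SE 0.24, adjusted p = 0.0021) as deposited and 0.70 (SE 0.23, adjusted p = 0.046) rescaled. Atp6v1e1, a peripheral stalk subunit, measured 295, 508 and 380.5 FPKM in WT and 553, 584 and 343 FPKM in KO cells. Its LPS difference was 0.43 (SE 0.35, adjusted p = 0.32) as deposited and 1.28 (SE 0.34, adjusted p = 0.024) rescaled, where it rose, and without the WT naive library it was -0.0096 as deposited. Atp6v1h, which regulates the joining of the sectors, measured 80.4, 97.7 and 96.7 FPKM in WT and 110.1, 97.6 and 98.2 in KO cells, within a narrow range, and rose only after rescaling, by 0.90 (SE 0.22, adjusted p = 0.021). Atp6v1e1 stood at 1.39, 6.01 and 2.99 times Atp6v1a in WT and at 2.60, 5.0 and 2.55 times in KO cells, highest in the LPS library of each genotype. Atp6ap1, an accessory subunit, fell by 0.88 with LPS as deposited (adjusted p = 0.019). The LPS calls as deposited were lost for Atp6v1a without WT LPS (-0.88), for Atp6v1d without WT LPS (-0.94) and for Atp6ap1 without WT LPS (-0.85), KO naive (-0.77) or KO LPS (-0.91).

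Genes grouped by promoter motif can be read beside these calls. With LPS as deposited, 5 of 5 genes with the extended E-box fell, 3 of 5 with the related motif, 15 of 22 with neither and 6 of 8 without a promoter in the table, against 54.4% of all genes tested. Rescaled, the counts were 1, 0, 4 and 4, against 23.1%, so the first 3 sets lay below that share. In tolerized against naive cells the same sets had 4, 1, 9 and 5 genes lower as deposited, against 19.7% of all genes. After rescaling these counts were 2, 0, 7 and 3, against 10.9%. Of the genes that fell on both scales with LPS, Mcoln1 had the extended E-box, and Gusb, Smpd1, Tfeb and Atp6v0a1 had neither motif. The others, Npc1, Asah1, Atp6v0d2 and Atp6v1b2, had no promoter in the table, so their motifs are not known here. The groups were not tested against each other.

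Other lysosomal genes, from lists chosen by function with earlier results of these data known, were read in the same fit. Of 34 other hydrolases and cofactors, 30 fell with LPS as deposited (median -1.53) and 13 rescaled (median -0.72), against 54.4% and 23.1% of all genes tested, and none rose on either scale. Pla2g15, the lysosomal phospholipase, fell by 4.27 (adjusted p = 0.00037), from naive levels of 131 FPKM (WT) and 50.1 (KO) to 4.48 and 2.32 with LPS. Sgsh, a sulfamidase, fell by 3.55 (adjusted p = 0.00037). In tolerized against naive cells 19 of the 34 fell as deposited and 16 rescaled, against 19.7% and 10.9% of all genes, and 1 rose rescaled. Sgsh fell by 2.56 there (adjusted p = 0.0025). Between LPS and tolerized cells 10 rose as deposited, below the 36.8% of all genes, and 4 rescaled, against 8.38%. Acp2, an acid phosphatase, rose by 2.07 there (adjusted p = 0.0078).

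Of 28 other membrane proteins and sorting receptors, 23 fell with LPS as deposited (median -1.20), against 54.4% of all genes. Rescaled, 11 of 29 fell, against 23.1%, and 2 rose, also against 23.1% (median -0.32). Slc36a1, an amino acid exporter, fell by 3.18 (adjusted p = 0.0004), and Ctns, the cystine exporter, fell by 2.94 (adjusted p = 0.00037). Sort1, the sorting receptor sortilin, fell by 3.45 in tolerized against naive cells (adjusted p = 0.0046), where 17 of 28 fell and 1 rose as deposited, and 12 of 29 fell and 1 rose rescaled. Of all genes, 19.7% fell and 7.41% rose as deposited, and 10.9% and 9.58% rescaled. Of 7 other subunits of the pump, 4 fell with LPS as deposited (median -0.74), close to the 54.4% and the median of -0.76 of all genes, and rescaled 1 fell and 1 rose, each against 23.1%. Of 20 genes of the TFEB family and the lysosomal mTORC1 machinery, which holds TFEB in the cytosol, 14 fell with LPS as deposited (median -1.07), against 54.4% of all genes. Rescaled 5 fell, close to the background of 23.1%, and 2 rose, against 23.1%. Flcn (folliculin) fell by 2.83 (adjusted p = 0.00048), and Rragd, a Rag GTPase, fell by 2.23 (adjusted p = 0.00073). Of the family besides Tfeb, Tfe3 stood at 65.0, 32.0 and 42.5 FPKM in WT and 61.2, 21.3 and 46.6 in KO cells. Mitf stood at 51.8, 37.8 and 35.5 FPKM in WT and 45.6, 34.8 and 44.7 in KO cells. Tfec measured 9.31, 81.9 and 55.6 FPKM in WT and 37.1, 44.3 and 22.6 in KO cells, highest with LPS in each. Of 30 autophagy genes 21 fell with LPS as deposited (median -1.42) and 15 rescaled, against 54.4% and 23.1% of all genes, while 1 and 2 rose, against 8.74% and 23.1%. Nbr1, an autophagy receptor, fell by 2.61 with LPS (adjusted p = 0.0008) and rose by 1.89 from LPS to tolerized cells (adjusted p = 0.0082).

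Cystatins and stefins inhibit cysteine cathepsins. Of 6 cystatins and stefins tested, none was called with LPS on either scale. Of all genes, 54.4% fell and 8.74% rose with LPS as deposited, and 23.1% fell and 23.1% rose rescaled. In tolerized against naive cells 3 of the 6 rose as deposited, 2 of them also rescaled, against 7.41% and 9.58% of all genes. The stefin A family member listed as 2010005H15Rik stood at 354 FPKM in WT tolerized and 98.6 in KO tolerized cells, against 0.15 and 9.46 in naive cells, and rose by 5.76 (SE 1.05, adjusted p = 0.012). Stfa3 stood at 37.9 and 21.6 FPKM in tolerized cells, was listed at 0 in WT naive cells and at 1.15 in KO naive cells, and rose by 4.34 (SE 0.46, adjusted p = 0.0033). Stefin A genes lie in a cluster of near-identical copies, so how reads were shared among them is uncertain. Neutrophils also express stefins, and the summed neutrophil markers were highest in the tolerized libraries, 200.0 FPKM in WT and 348 in KO, against 66.2 and 170.4 in naive cells. Most of that sum was S100a8 alone, at 191 FPKM in WT and 341 in KO tolerized cells, while S100a9 and Ngp were listed at 0 in every library. The part of neutrophils was not tested.

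Between genotypes limma called no lysosomal gene, on either scale (0 of 40 lower and 0 of 40 higher), and of all genes tested 0% were called as deposited and 0% rescaled. By an unadjusted p under 0.05, 1 of 40 members lay lower in KO cells as deposited (Man2b1) and 0 higher. Among all genes tested, 268 lay lower (2.64%) and 439 higher (4.33%). Rescaled, Man2b1 again lay lower, against 2.09% of all genes. Atp6v1d and Neu1, 2 of 40, then lay higher, against 5.21%, so the members were close to the background. The members' median difference was 0.06 as deposited, against -0.06 for all genes. Standard errors ran from 0.15 for Smpd1 to 0.42 for Ctsd, so a difference that missed the threshold does not show that the genotypes were alike. As deposited, the largest differences were those of Man2b1, -0.80 (SE 0.24, adjusted p = 0.53), Ctsz, 0.52 (SE 0.29, adjusted p = 0.8), and Glb1, -0.47 (SE 0.21, adjusted p = 0.75). Rescaled, Man2b1 (-0.74) and Ctsz (0.58) were followed by Neu1 (0.52), Atp6v1d (0.47) and Gaa (0.43), ahead of Glb1 (-0.41). Man2b1 was lower in KO than WT in 3 of 3 conditions and Ctsz higher in 3 of 3. No gene of the other lists was called either. Cst7, a cystatin that inhibits lysosomal cathepsins, lay furthest apart, at 3.86, 11.2 and 6.88 FPKM in WT and 143, 174 and 33.1 FPKM in KO cells, without overlap. Its difference was 3.62 (SE 0.48, adjusted p = 0.16).

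With 1 library per group, differences within a condition have no replicate check and were counted by size. At least 2-fold lower in the KO library were 2 members in naive cells (5%), Ctsd and Man2b1, against 3.12% of genes, 0 with LPS, against 3.05%, and 0 in tolerized cells, against 0.774%. At least 2-fold higher were 0 in naive cells, against 3.95%, 1 with LPS (Gaa), against 4.19%, and 0 in tolerized cells, against 1.81%. For Ctsd the naive libraries stood at 10448 FPKM (WT) and 4460 (KO), a difference of 2.34-fold, while the LPS libraries stood at 1729.7 and 1629 FPKM and the tolerized ones at 1717 and 1715. The fall of Ctsd with LPS was therefore 2.59 on the log2 scale in WT and 1.45 in KO cells. In 30 of 40 genes the LPS difference was less negative or more positive in KO than in WT (75%), against 44.3% of all genes tested. All 40 share the 4 libraries of that contrast, the WT naive one included, and the median of all genes was -0.74 in WT and -0.83 in KO cells. From LPS to tolerized cells the KO difference lay above the WT one in 12 of 40 genes (30%), against 58.4% of all genes. In tolerized against naive cells it did so in 26 of 40 (65%), against 51.8%. Whether the response differs between genotypes was not tested, because that term leaves no residual degrees of freedom.

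**Figure D5:**
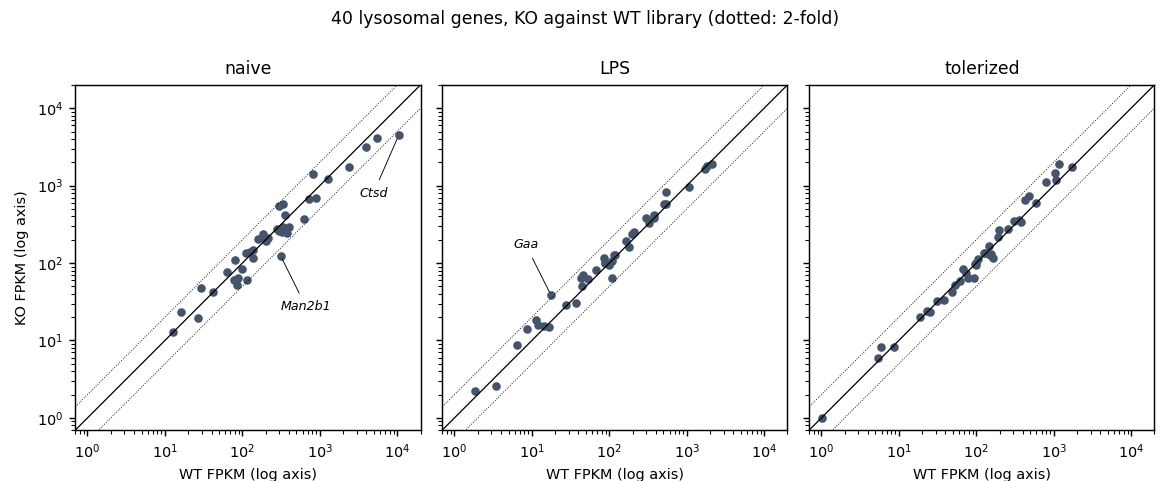
FPKM of the 40 genes in the KO library against the WT library of each condition, on log axes, with a solid line of equality and dotted lines at 2-fold. Ctsd and Man2b1 lie below the lower dotted line in naive cells, Gaa above the upper one with LPS, and no gene outside the lines in tolerized cells.

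The deleted microRNAs share their seed, bases 2 to 8, shown in capitals in the RefSeq mature sequences. Their targets pair with that seed, so matches to it were sought in the longest annotated 3′ end of each gene (GENCODE M21, GRCm38).
mmu-miR-221-3p, GRCm38.p6 chrX:19146307-19146329, minus strand: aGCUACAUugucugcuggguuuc
mmu-miR-222-3p, GRCm38.p6 chrX:19146901-19146923, minus strand: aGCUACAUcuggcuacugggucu
The 7-base match ATGTAGC was found in 5 of 40 members (12.5%: Atp6v1b2, Atp6v1d, Ctsb, Ctsl and Tpp1), and in 995 of 9012 genes tested. Counting also TGTAGCA, which pairs with 6 seed bases and ends in A, 10 of 40 (25%) and 18.4% had a match. Atp6v1d, with 2 of the 7-base matches, and Ctsb are shown with the match in capitals.
Atp6v1d, GRCm38 chr12:78841805-78841833, minus strand: taagaaaccagATGTAGCtcacagaaaat
Atp6v1d, GRCm38 chr12:78841320-78841348, minus strand: tttaatttctcATGTAGCtgcagtaaagc
Ctsb, GRCm38 chr14:63145866-63145894, plus strand: ccaccatgacaATGTAGCcaactaaccac
The KO-to-WT difference was 0.41 (SE 0.18, adjusted p = 0.74) for Atp6v1d and -0.05 for Ctsb, with a median of 0.03 over the 5 genes with the 7-base match and 0.06 over the 30 without a match, and no test was made between these sets. Atp6v1d measured 111, 46.2 and 67.4 FPKM in WT and 136, 71.0 and 85.0 FPKM in KO cells, higher in KO in 3 of 3 conditions. A match describes letters in a transcript, not regulation.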

How the data were processed

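Poly-A mRNA of 6 libraries, 1 per group by title, was measured. The authors deposited 1 table per library with FPKM and its interval per gene, per the file headers. The submitters' processing notes name bcl2fastq 1.8.4, TopHat, Cufflinks and the build mm9. How strand and overlapping genes were handled, which annotation was used, and the TopHat and Cufflinks releases were not given in sources used here.

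Of 23699 rows, 1532 were left out and 22167 kept; 349 were not marked OK in all libraries, 712 had symbols listed at several loci and 787 were small RNAs, and 298 fell into more than 1 of these classes. All 6 libraries entered a linear model of genotype plus condition (limma 3.58.1, R 4.3.3, moderated with a trend) on log2(FPKM + 1), over the 10139 genes reaching 2 FPKM in 2 or more libraries, with 2 residual and 4.2 prior degrees of freedom; the fit was tested on simulated data. FPKM are not counts, so no count model was used. The mm9 positions are those of the deposited tables. The added 1 makes differences of low genes smaller. Rescaling divided each library by its median of ratios (naive 1.31 and 1.29, LPS 0.75 and 0.69, tolerized 1.10 and 1.08, WT before KO). Fragments were estimated by taking the intervals as 2 standard errors of a count. Within a condition, genotypes were compared by a rule of 2-fold.

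The members, the lists and the markers were chosen with earlier results of these data known. By the rule for named genes, values in all 6 libraries are given for members with the largest and smallest differences of their role, for those of opposite sign in the comparisons with naive cells, for the 3 largest KO differences and for 9 fixed members; other members' values, and Atp6v0c-ps2 and Pltp, were added after their values were seen. Of other lists, at most 4 genes with the largest difference are named. Outside that rule, single markers and Tfe3, Mitf and Tfec were named after their values were seen. Alternatives were other scalings, pseudocount 0.1, other filters, no trend, a single term, and leaving out each library.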

Additional observations from a re-analysis of the deposited data

Results flagged for a closer look

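WT and KO libraries moved in opposite directions, as deposited on the log2(FPKM + 1) scale, in some members of each comparison between conditions, 7 of them in tolerized against naive cells. Grn differed by -0.93 in WT and 0.063 in KO, Ctsh by -0.54 and 0.19, and Ctsz by 0.41 and -0.25. Of the pump genes, Atp6v1e1 differed by 0.37 in WT and -0.69 in KO, Atp6v0b by 0.10 and -0.67, Atp6v1h by 0.26 and -0.16, and Atp6v0c, whose locus is shared with the listed Atp6v0c-ps2, by 0.12 and -0.22. With LPS against naive, Atp6v0b differed by 0.17 in WT and -0.58 in KO, and Atp6v1h by 0.28 and -0.17. Between tolerized and LPS cells, Ctsb differed by -0.40 in WT and 0.22 in KO, and Asah1 by 0.20 and -0.084. Ctsc differed there by 0.048 in WT and -0.15 in KO, Ctsd by -0.010 and 0.074, and Atp6v1h by -0.015 and 0.0093. None of these differences between the genotypes was tested, since each value rests on 1 pair of libraries. Several of the values are small, and the share of all genes with opposite signs was not counted.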

How the results depend on the processing

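Rescaling by the median of ratios moved the members called with LPS from 29 lower and 0 higher to 9 and 3, from LPS to tolerized cells from 1 lower and 5 higher to 3 and 1, and in tolerized against naive cells from 19 lower to 12. With no filter on low values the counts were 19 lower with LPS, and 0 lower and 0 higher from LPS to tolerized cells. In tolerized against naive cells 0 were lower, and the cause was not tested. The share of all genes called was not counted for this setting, nor for the fits without 1 library here and above. Whether such drops are particular to the members is therefore not known. Without the trend, 1 member rose with LPS. Leaving out 1 library each gave 19 to 31 lower with LPS, 1 to 6 higher from LPS to tolerized cells and 7 to 19 lower in tolerized against naive cells; a condition left with 1 library is assumed to vary like the others. Left out 1 library at a time, the LPS difference of Atp6v1e1 ran from -0.0096 (without WT naive) to 0.87 and that of Atp6v1h from -0.17 (without WT naive) to 0.27, with -0.07 without WT LPS; scaled to equal summed FPKM, Atp6v1h stood at -0.035. Of 806 values of single members under alternatives, 654 kept direction and call, 142 lost the call, 6 gained one and 4 turned. The counts of 0 between genotypes stayed 0 under every alternative run. Conditions are compared within genotype in the model used; with condition alone, 28 members fell with LPS and 19 in tolerized against naive cells. No paired analysis was possible because the labels carry no replicate numbers, beyond that use of genotype as a term. FPKM carry no counts, so the estimated depth limits low genes such as Atp6v0d2 in tolerized cells most.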
